A study of Mus musculus with 2 samples.

Results

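The regions described here lie near the centromeric ends of mouse chromosomes 1 to 19. A region was taken as a member when its midpoint lay below 10 Mb on the deposited mm9 coordinates, which 1438 of the 23339 regions on these chromosomes did. The whole table holds 23946 regions, and the 607 on chromosomes X and Y were not used. Position alone decided membership, and the level of the mark did not enter the rule. The rule itself was chosen with earlier results of these data known.

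H3K9me2, the dimethylation of lysine 9 of histone H3, was measured by chromatin immunoprecipitation and sequencing in MC1-ZE7 cells, a mouse embryonic stem (ES) cell line of strain MC1 (129S6/SvEvTac). Sorting for Emerald, a green fluorescent protein, gave an Emerald-negative population and an Emerald-positive population, the latter taken from the high fraction. The series describes these as cells without and with Zscan4. Each population is represented by 1 library of the same line, so the sorted populations were compared without replicates, no test between them was possible and no p-value is given. Intervals below are 95% and cover counting error only. Since PCR copies are not marked, reads are not independent molecules, and differences between cultures, sorts and precipitations are not covered either.

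All mouse chromosomes other than Y carry the centromere at one end. The centromere and the satellite repeats beside it are mostly missing from the genome assembly, which starts each chromosome with a gap and gives sequence from about 3 Mb on. The satellite repeats are packed into constitutive heterochromatin, known for trimethylation of the same lysine by the SUV39H enzymes. H3K9me2 is laid down mostly by the G9a and GLP methyltransferases and covers broad silent stretches of the chromosome arms. The Zscan4 genes encode zinc finger proteins; they are active in early cleavage embryos and, at any moment, in a small share of ES cells. The members are thus regions in the assembled part of each arm nearest to the heterochromatin. No repeat annotation was used, so whether any member holds satellite repeat was not tested.

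Each region was measured over a 10 kb window around its midpoint, in 50 bins of 200 bp. The level of a region is the sum of its 50 bins in the scaled units of the deposited table. In those units 1 read is worth 1.12 (Emerald-positive) and 0.902 (Emerald-negative). Over the members there were 16955 Emerald-positive and 20475 Emerald-negative reads, and the median member had 8 and 10 reads. No input library was used here, so the number of genomic copies of a region, the ease with which reads map to it and the mark cannot be told apart in any level below.

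In both populations the typical member carried slightly more H3K9me2 signal than the typical region elsewhere. The Emerald-positive library gave the members a median level of 8.96 (quartiles 4.48 and 15.7), and the Emerald-negative one 9.0 (quartiles 4.50 and 15.3). For the other 21901 regions it was 7.84 (quartiles 4.48 and 13.4) and 7.20 (quartiles 4.50 and 13.5). The quartiles overlapped almost entirely, and each gap between medians was worth 1 or 2 reads. In both libraries 707 members reached the median of all regions or more, which was 49.2% of them, against 41.4% of all regions. A level at least 2-fold above that median was found in both libraries for 234 members (16.3%, against 13.0% of all regions), and one at least 2-fold below it for 145 (10.1%, against 12.9%). The members were thus shifted a little at both ends of the distribution.

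The mean showed a larger excess than the median. The members were 6.16% of the regions and held 7.85% (7.73 to 7.96%) of the Emerald-positive reads and 7.69% (7.59 to 7.79%) of the Emerald-negative reads. Their mean level was 13.2 against 10.2 elsewhere in the Emerald-positive library, 1.30 times as high (1.28 to 1.32). In the Emerald-negative library it was 12.8 against 10.1, or 1.27 times as high (1.25 to 1.29). A few members with many reads made up most of this: without regions of more than 100 reads over both libraries the ratios of means were 1.12 (1.10 to 1.14) and 1.09 (1.08 to 1.11).

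The excess was also present against the opposite ends of the same chromosomes. The 2174 regions within 10 Mb of the last region of each chromosome had median levels of 6.72 (Emerald-positive) and 7.20 (Emerald-negative). Mean levels of the members were 1.27 times (1.25 to 1.30) and 1.26 times (1.23 to 1.28) theirs.

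Members resembled other regions in median width and in spacing. Their median width was 1057 bp (range 214 to 4589 bp) against 1116 bp elsewhere, though the lower quartile was 533 bp against 631 bp. A median of 16 other regions lay within 500 kb of a member, against 17. A library without any read occurred in 30 members (2.09%) and in 635 other regions (2.90%); at this depth 0 reads allows up to 3. Windows of 407 members lay under 10 kb from the previous one, 28.3% against 28.1% elsewhere, so that some reads count in more than 1 window.

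Members with many reads were concentrated next to the start of the assembled sequence. More than 100 reads over both libraries were found in 17 members (1.18%), against 0.536% of all regions. Such regions were not more frequent here than at the opposite ends, where 36 of 2174 (1.66%) had more than 100 reads. Of the 17 members, 14 lay within 500 kb of the 3 Mb position and 9 within 100 kb of it. They were spread over 9 chromosomes and together held 20.0% of all reads in members. The 13 regions in the first 100 kb alone held 13.7% of them.

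**Figure D1:**
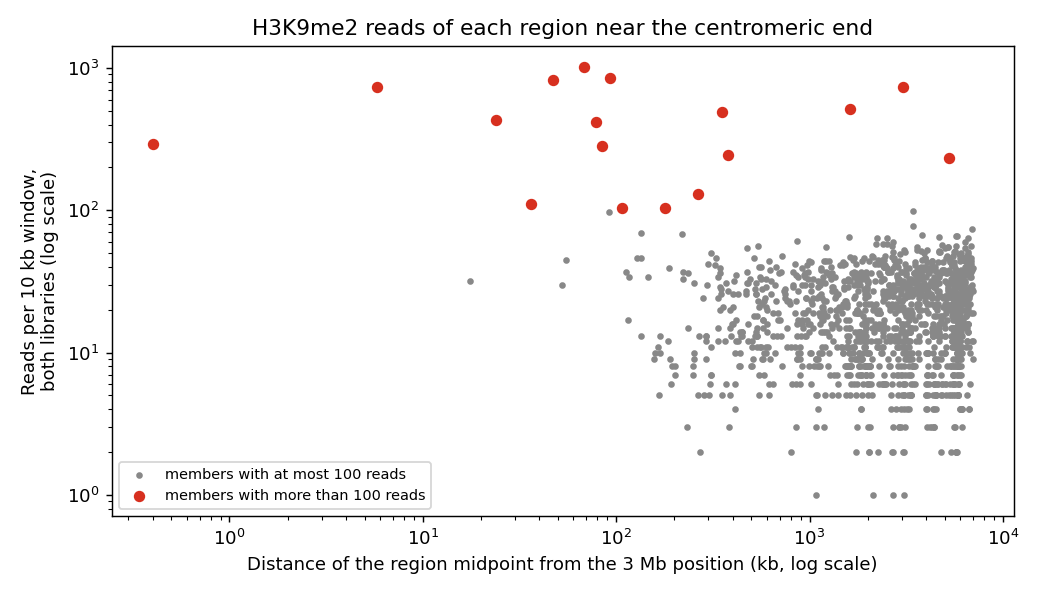
Each point is one of the 1438 regions near the centromeric ends: its distance from the 3 Mb position in kb (log scale) against its reads over both libraries (log scale), with the 17 regions of more than 100 reads in red. Of the red points, 14 lie within 500 kb of the 3 Mb position.

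Chromosome 11 opened with the strongest group. Its first 4 regions lay between 23.9 and 93.3 kb from the 3 Mb position, and their windows did not overlap. The first, chr11:3023741-3023991, had 190 Emerald-positive and 239 Emerald-negative reads. The second, chr11:3046802-3048089, had 344 and 481. The third, chr11:3067389-3068432, had 440 and 571, the most of any member: levels of 493 and 515, or 62.9 and 63.6 times the median of all regions. The fourth, chr11:3092559-3094077, had 362 and 484.

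The high reads of chromosome 11 ended abruptly. Its next 6 regions, from chr11:3165948-3166312 on, had 3 to 10 reads over both libraries, all below the median of 16 over all regions. All 4 of the high regions had a lower scaled level in the Emerald-positive library, with folds of 0.988 (0.812 to 1.20), 0.889 (0.772 to 1.02), 0.958 (0.844 to 1.09) and 0.929 (0.809 to 1.07). Each interval includes 1, so none of these differences was larger than counting error.

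The 4 windows were filled in different ways. In the second and the fourth, reads lay along the whole 10 kb: no 2 kb zone of the fourth held under 137 or over 200 of its 846 reads. The third held 288 of its 1011 reads in the central 2 kb and 285 in the next 2 kb away from the centromere, with a summit of 147 reads in the bin at 1100 bp. In the first, 227 of 429 reads lay in the last 2 kb, on the side away from the centromere, and only 18 in the central 2 kb. The signal of these windows was thus not a shared shape around the region.

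Chromosome 18 began with a pair of overlapping windows. The region nearest to the start, chr18:3000125-3000648, had 129 Emerald-positive and 162 Emerald-negative reads, and its first 24 bins were empty, 23 of which lie wholly before the 3 Mb position. Of its 291 reads, 263 lay in its last 2 kb. The next region, chr18:3005258-3006339, lay 5412 bp further along and had 340 and 392 reads, 447 of them in its central 2 kb. The windows share the stretch between the regions, and many of the reads of the first are the same reads as those of the second.

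Chromosome 17 held a similar pair and, further along, the most sharply peaked of the 17 members with more than 100 reads. The pair, chr17:3077972-3079350 with 194 Emerald-positive and 221 Emerald-negative reads and chr17:3083410-3084832 with 133 and 148, lay 5460 bp apart, and their windows overlapped. In the second of them 172 of 281 reads lay in the first 2 kb, on the side of its neighbour. The peaked member was chr17:4626258-4626811, with 285 Emerald-positive and 229 Emerald-negative reads. Of these reads, 450 (87.5%) lay within 400 bp of the midpoint.

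That chromosome 17 region differed between the populations by more than counting error. Its scaled level was 1.55 times as high (1.30 to 1.85) in the Emerald-positive library, 320 against 207, a log2 difference of 0.63 (0.37 to 0.89). The central 2 kb held 268 of the Emerald-positive and 214 of the Emerald-negative reads, and the bin profiles of the libraries had a Pearson correlation of 0.98 over the 50 bins, so that the shape was shared and the height was not. Of the 17 members with more than 100 reads it was the one whose interval excluded equal scaled reads. It was not adjusted for the number of regions looked at, and without a second library the difference has no replicate check.

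Far from the start, chr14:6036216-6036845 was both the first region of its chromosome and one of the most-read members. It had 320 Emerald-positive and 415 Emerald-negative reads, a fold of 0.958 (0.826 to 1.11), and no other region within 500 kb. Chromosome 14 is the one chromosome among the 19 without a region between 3 and 6 Mb. The central 2 kb held 283 of its 735 reads.

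The other members with more than 100 reads took several forms. In chr16:3349892-3351627, with 220 Emerald-positive and 274 Emerald-negative reads, and chr3:8245936-8246948, with 97 and 137, the central 2 kb held most of them, 279 of 494 and 155 of 234. In chr13:3376954-3377581, with 117 and 128, the first 2 kb held 211 of 245 reads and the central 2 kb held 6, so the signal came from a neighbouring stretch that the window reached. The 4 with the fewest reads, on chromosomes 4, 7, 13 and 16, had 103 to 130 reads scattered along the window. Across the 17, the correlation of bin profiles between the libraries ran from -0.030 to 0.98 with a median of 0.78. Where it was high, both libraries had placed their reads in the same bins.

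Between 100 kb and 1 Mb the direction depended on how the regions were summarised. In the 31 regions from 100 to 250 kb the median level was 7.84 (Emerald-positive) and 5.40 (Emerald-negative). In the 76 regions from 250 to 500 kb it was 7.84 and 7.65, and in the 134 regions from 500 kb to 1 Mb it was 10.1 and 9.0, so the pooled medians did not rise towards the centromere. With each chromosome weighted equally, the median of the chromosome medians was 17.4 and 18 in the nearest of these bands. It was 10.1 and 11.7 in the next and 8.96 and 8.32 in the farthest, and thus rose. The bands held regions of 11, 15 and 18 chromosomes in this order, so the rise does not compare the same chromosomes. Means were 15.2 and 12.7, 15.3 and 14.6, and 10.5 and 10.1 in the same order, and 12.2 and 10.4, 9.94 and 9.35, and 10.5 and 10.1 without the 5 members of more than 100 reads that lie there. The interval from 3 to 4 Mb held 29.5% of all member reads in each library. Its mean levels were 22.1 (Emerald-positive) and 21.4 (Emerald-negative), but 10.8 and 10.1 without regions of more than 100 reads, and its medians were 9.52 and 9.0.

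From 4 to 10 Mb the pooled medians moved without a trend, and no step appeared at the boundary. They lay between 7.84 and 11.2 for the Emerald-positive and between 8.10 and 12.6 for the Emerald-negative library, with the highest values from 9 to 10 Mb. The interval just outside, from 10 to 11 Mb, had medians of 11.2 and 11.7, and so did all regions from 10 to 20 Mb. From 20 to 100 Mb the medians were lower, 7.84 and 8.10. The excess of the members over the rest was therefore not an excess over the regions next to them: at the pooled median, those were higher than the members. Their mean was higher as well, 14.7 in each library from 10 to 20 Mb, against 13.2 and 12.8 for the members. Without regions of more than 100 reads these means were 12.2 and 12.1, against 10.7 and 10.4. With the boundary moved to 15 Mb, the ratio of means to the rest was 1.30 and 1.28. A mean far above the median was also seen from 19 to 20 Mb, 29.7 and 32.1. With each chromosome weighted equally, medians of chromosome medians in the 1 Mb intervals of the members ran from 10.9 to 14.6 (Emerald-positive). They ran from 10.6 to 13.7 in the Emerald-negative library. From 10 to 20 Mb these medians were 12.3 and 12.15, so by this measure the members lay on both sides.

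**Figure D2:**
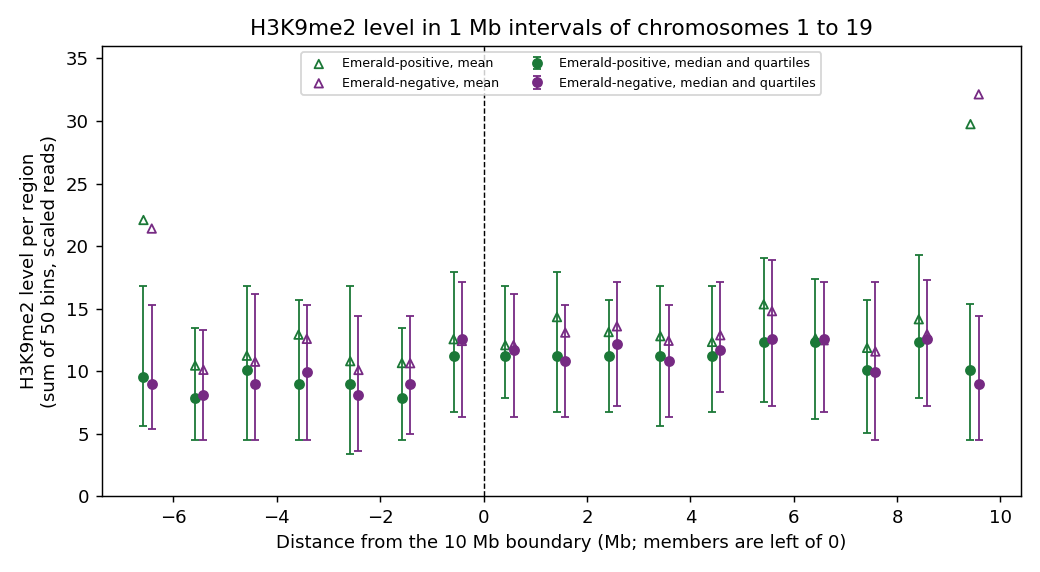
H3K9me2 level per region (sum of 50 bins, in scaled reads) in 1 Mb intervals of chromosomes 1 to 19 against the distance from the 10 Mb boundary in Mb, with filled points for medians, bars for quartiles and open triangles for means. Medians are 9.52 and 9.0 in the interval nearest the centromere and 11.2 and 11.7 just outside the boundary, while the mean stands far above the median in the first interval (22.1 and 21.4). The mean stands even higher from 19 to 20 Mb, outside the members, at 29.7 and 32.1 over medians of 10.1 and 9.0.

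Regions at the boundary itself had ordinary levels on both sides. The 5 members nearest to it, on chromosomes 1, 2, 8, 15 and 19, had levels of 3.36 to 19 (Emerald-positive) and 2.70 to 19.8 (Emerald-negative). The 5 regions just outside, on chromosomes 1, 2, 18 and 19, had 2.24 to 14.6 and 0.900 to 14.4.

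The very first region of each chromosome was high more often than other regions. Over the 19 first regions the median level was 25.8 (Emerald-positive, range 2.24 to 359) and 20.7 (Emerald-negative, range 2.70 to 374). The level reached the median of all regions in both libraries on 18 of the 19 chromosomes, against 41.4% of all regions, and 2-fold that median in both on 13, against 13.0% of all regions. The exception was chromosome 19, whose first region had 2 Emerald-positive and 3 Emerald-negative reads.

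Chromosomes differed in direction. The median level of the members was above that of the rest of the same chromosome in both libraries on 13 of the 19, and below it in both on 4, chromosomes 7, 10, 16 and 19. On chromosome 12 it was above only in the Emerald-positive library, with equal medians in the other, and on chromosome 14 it was above in the Emerald-positive and below in the Emerald-negative one. Chromosome 4 had the highest ratio: its 44 members had medians of 14.0 (Emerald-positive) and 13.1 (Emerald-negative), against 6.72 and 6.30 for the rest of the chromosome, or 2.08 and 2.07 times as high. Chromosome 8 had the highest member medians, 16.8 and 16.2, against 10.1 and 10.8, although its ratios of means were 0.975 and 0.951.

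Chromosome 19 had the lowest ratio. It had the most members, 196, with medians of 4.48 (Emerald-positive) and 4.50 (Emerald-negative) against 7.84 and 8.10 for its rest, or 0.571 and 0.556 times as high. Its ratios of means were 0.572 and 0.606. A median of 36 other regions lay within 500 kb of its members, against 16 for the rest of chromosome 19. Chromosome 16 shows how mean and median can part: its median ratios were 0.750 and 0.800, while its ratios of means were 1.23 and 1.31, with 2 of the members of more than 100 reads.

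**Figure D3:**
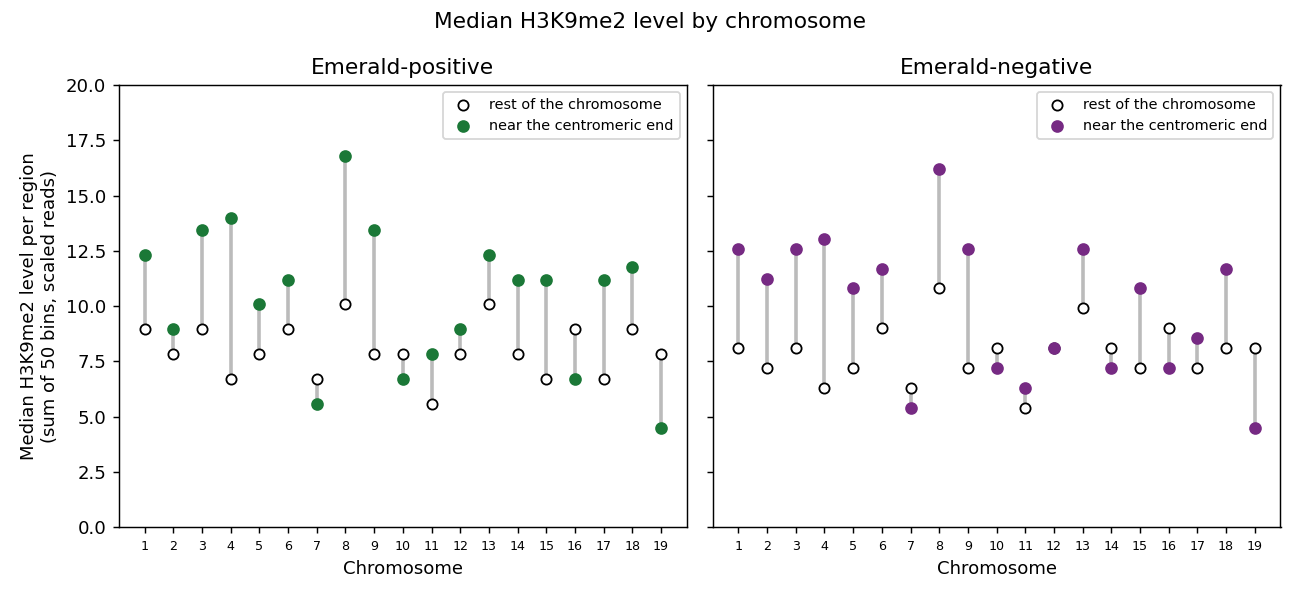
Median H3K9me2 level per region (sum of 50 bins, in scaled reads) for each of chromosomes 1 to 19, with filled points for the regions near the centromeric end, open points for the rest of the same chromosome and one panel per library. The filled point is the higher one in both panels on 13 chromosomes and the lower one in both on chromosomes 7, 10, 16 and 19.

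Where regions were dense the level was low, among members as elsewhere. Across the 1438 members, the level and the number of other regions within 500 kb had a Spearman correlation of -0.44 (Emerald-positive) and -0.42 (Emerald-negative), and across the other regions -0.39 in each. Neighbouring regions share both the count and, in part, their reads. Across the 19 chromosomes, the number of members and their median level had a Pearson correlation of -0.57 and -0.53 (Spearman -0.43 and -0.41), and of -0.39 and -0.36 (Pearson) without chromosome 19.

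The excess at the median was seen in most, not all, groups of regions with like spacing or width. By quartile of the number of regions within 500 kb, from sparse to dense, the ratio of the member median to that of the rest was 1.09, 1.13, 1.33 and 1.00 in the Emerald-positive library. In the Emerald-negative library it was 1.15, 1.33, 1.14 and 1.20. By quartile of width, from narrow to wide, it was 1.29, 1.29, 1.29 and 1.00, and 1.25, 1.22, 1.11 and 1.00. In the widest quartile, from 1666 bp on, members and other regions thus had equal medians.

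Between the populations the members were almost equal. Their pooled scaled reads were 1.03 times as high (1.01 to 1.05) in the Emerald-positive as in the Emerald-negative library, a log2 difference of 0.041 (0.012 to 0.071), against 0.010 (0.0017 to 0.019) for the other regions. The difference between these log2 values was 0.031 (0.00039 to 0.062). It was 0.028 (-0.0061 to 0.062) without regions of more than 100 reads and 0.021 (-0.019 to 0.061) against the distal ends, so it was not larger than counting error in either. Reads in overlapping windows are counted more than once, so these intervals are too narrow. Without windows under 10 kb apart, the pooled log2 difference of the members was 0.025 instead of 0.041. Because each library was scaled by 1 constant, a change by the same factor everywhere would not appear here.

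Few members differed by 2-fold or more between the populations, and about as many in each direction. Of the 1408 members with a read in both libraries, 86 (6.11%) were at least 2-fold higher in the Emerald-positive library, against 5.39% of all regions, and 71 (5.04%) at least 2-fold lower, against 5.46%. These folds are on the log2 scale after adding a level of 1.80 to both sides, which understates them where reads are few. The counting interval lay above the ratio of all regions in 38 members (2.64%, against 1.86%) and below it in 21 (1.46%, against 1.55%). The median log2 difference of the members was 0.046, with quartiles of -0.34 and 0.42, and its SD over members was 0.60, against 0.62 over the other regions. The share with an interval above the ratio of all regions was somewhat higher among members, and the other shares were near those of the whole table.

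**Figure D4:**
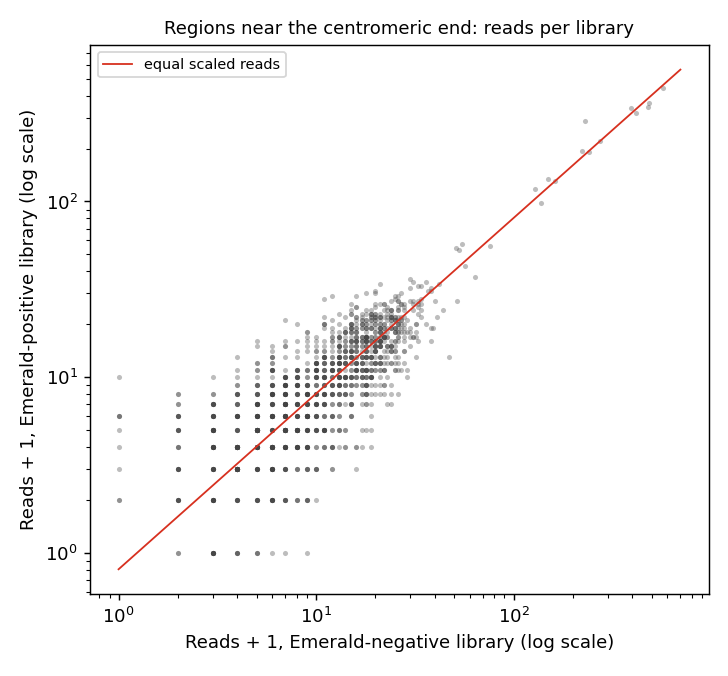
Reads plus 1 of each of the 1438 regions near the centromeric ends in the Emerald-negative library (horizontal, log scale) and in the Emerald-positive library (vertical, log scale), with a red line for equal scaled reads. The points follow the line with a Pearson correlation of 0.79 between log2(reads + 1) of the libraries (0.98 between the levels, which rests on the most-read regions, and 0.77 between the levels of those with at most 100 reads).

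The largest differences rested on few reads. Among members at or above the median level, the highest fold was at chr4:6382759-6383985, with 15 Emerald-positive and 4 Emerald-negative reads, 4.66-fold (1.48 to 19.3). Next on the log2 scale with the added level came chr1:6437976-6439920 with 20 and 6 reads, 4.14-fold (1.60 to 12.6), and chr17:7721942-7722985 with 14 and 4. They were followed by chr8:8991715-8993023 with 27 and 10 reads, 3.36-fold (1.57 to 7.77), and chr15:4979204-4980753 with 19 and 7. The reads of these 5 regions were scattered, with at most 4 in any bin.

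The lowest folds were of the same kind, with 1 region of more reads. The lowest was at chr13:4558446-4560023 with 3 Emerald-positive and 18 Emerald-negative reads, 0.207-fold (0.0391 to 0.709), followed by chr19:6672938-6673783 with 4 and 18. The region chr2:5505462-5505726 had 12 and 46 reads, 0.324-fold (0.156 to 0.622). In its zone from 3 to 1 kb before the midpoint there were 26 Emerald-negative reads and 0 Emerald-positive reads, which allows up to 3, and its remaining zones held 12 and 20. The last 2 were chr8:3399801-3401589 with 4 and 17 reads and chr19:8972666-8972901 with 6 and 23. These regions were picked for their extreme ratio from the 722 members at or above the median level with a read in both libraries, so the intervals are a description.

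By chromosome the pooled log2 difference of the members was above 0 on 13 and below 0 on 6. Chromosome 2 had the lowest value, -0.17 (-0.35 to 0.012), and chromosome 17 the highest, 0.24 (0.12 to 0.36). The interval lay above 0 on chromosomes 17 and 18 (0.13, 0.0079 to 0.24) and below 0 on none. That of chromosome 18 includes the log2 ratio of all regions, 0.013, and that of chromosome 17 does not. These intervals were not adjusted for the number of chromosomes looked at. On chromosome 17 the peaked region described above held 514 of the reads. Without the most-read member of each, the value fell to 0.13 (-0.0075 to 0.26) on chromosome 17. On chromosome 18 it stayed at 0.13 (-0.0084 to 0.28), with fewer reads and a wider interval. Neither was larger than counting error.

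The mean signal over regions dipped around the midpoint, and that of the members dipped about as much once the most-read ones were set aside. The mean signal of the central 10 bins divided by that of the other 40 was 0.868 (0.834 to 0.902) for the Emerald-positive and 0.832 (0.802 to 0.863) for the Emerald-negative library, against 0.681 and 0.652 elsewhere. Without regions of more than 100 reads it was 0.644 (0.613 to 0.676) and 0.642 (0.614 to 0.671), against 0.667 and 0.643. Pooled over the 17 most-read members the centre was higher than the flanks, 2.03 and 1.77, and 1.56 (1.44 to 1.69) and 1.48 (1.38 to 1.59) over 16 of them, without the peaked chromosome 17 region. In 7 of the 17, however, the central 2 kb, which is 20% of the window, held under 20% of the reads. Without the peaked chromosome 17 region alone, the ratio of all members was 0.792 and 0.782.

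A difference in shape between the populations was not detectable in the members at their depth. The log2 difference of the centre-to-flank ratio was 0.060 (-0.017 to 0.14) over all members and 0.0049 (-0.090 to 0.10) without the most-read ones. Over the other regions, with many more reads, it was 0.061 (0.037 to 0.085), and 0.054 (0.028 to 0.079) without the most-read ones, so the members' intervals include the size found elsewhere. Reads were divided evenly between the sides, with 50.8% of the Emerald-positive and 51.0% of the Emerald-negative reads of members on the side of the centromere.

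**Figure D5:**
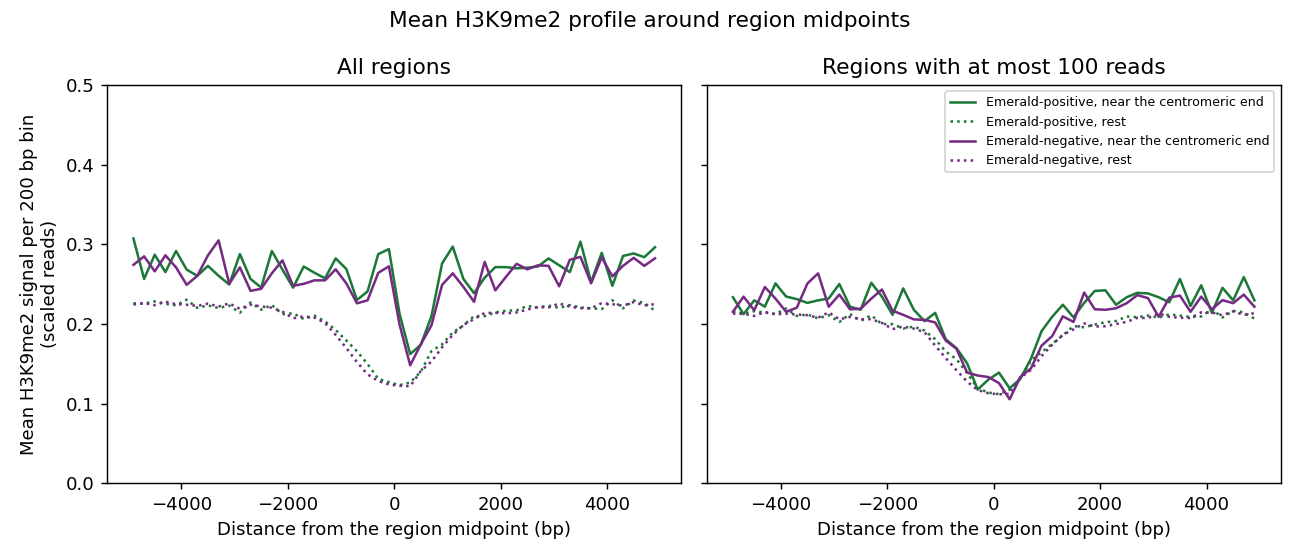
Mean H3K9me2 signal per 200 bp bin (scaled reads) against the distance from the region midpoint in bp, for regions near the centromeric ends (solid) and the rest (dotted) in both libraries, over all regions (left) and over regions with at most 100 reads (right). The centre-to-flank ratios of 0.868 and 0.832 on the left fall to 0.644 and 0.642 on the right, where solid and dotted lines have nearly the same dip.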

How the data were processed

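Per the file headers, the deposited values are H3K9me2 signal in 50 bins around each region, for both libraries. The authors scaled this signal: 99.9994% and 99.9995% of the values above 0 were whole multiples of 1 step per library within a tolerance of 0.02, so whole reads were recovered by division, and the Emerald-negative library was 1.24 times as deep if both were scaled to one total. The submitters' processing notes name mm9. Not given in the sources used here are the aligner, duplicate removal, how regions were picked, and which of the 2 library preparations in the labels' protocols was sequenced. Coordinates are as deposited. Bins run in genome order: overlapping windows matched with a correlation of 0.99, and of 0.46 when reversed.

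Intervals are exact binomial ones (Clopper-Pearson), given the reads of both sides together; those of differences between log2 values are normal approximations. A count model was not used, with 1 library per population. Interval scripts were tested on simulated data. Regions were named by rule: the 10 highest levels, the 5 highest and 5 lowest ratios among members at or above their median level, and the chromosomes with the highest and lowest ratio of medians; the other regions of more than 100 reads and the first regions of chromosomes were described after their values were seen. The members, lists and alternatives were chosen with earlier results of these data known. Computations used scipy 1.17.1, pandas 2.3.3 and numpy 2.4.6 under Python 3.11.15.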

Additional observations from a re-analysis of the deposited data

How the results depend on the processing

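No paired analysis was possible because the labels give 1 library in each population. Values are given for the Emerald-positive and then the Emerald-negative library, and the cause of each move was not tested unless the setting itself states it. The ratio of mean levels of members to the rest (1.30 and 1.27) was 1.57 and 1.53 with the boundary at 5 Mb, 1.12 and 1.09 without regions over 100 reads, 1.10 and 1.08 without the first 500 kb, 1.51 and 1.46 without chromosomes 7, 10, 16 and 19, 1.26 and 1.23 without the first 5% of the table's rows, 1.59 and 1.56 over the central 10 bins and 1.25 and 1.22 over the outer 40. It was 1.27 against the distal ends (Emerald-positive), and 1.30 without windows under 10 kb apart and 1.31 as the median over chromosomes (Emerald-negative). The ratio of medians (1.14 and 1.25) was 1.33 against the distal ends, 1.43 without the 4 chromosomes and 1.31 as the median over chromosomes in the Emerald-positive library. In the Emerald-negative library it was 1.5 without the 4 chromosomes, 1.11 over regions read in both libraries, and 1 both with the boundary at 5 Mb and over the central bins. Leaving out each chromosome in turn gave ratios of means from 1.21 (without chromosome 11) to 1.41 (without chromosome 19) and from 1.17 to 1.38 (the same chromosomes), and ratios of medians from 1.14 to 1.29 and from 1.11 to 1.38.

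The pooled log2 difference between populations (0.041) was 0.091 over the central 10 bins and 0.028 to 0.053 without each chromosome. With a pseudocount at the 25th percentile, 24 members were at least 2-fold higher and 24 lower, against 86 and 71. The share over all regions is not given for this setting. The centre-to-flank ratio (0.868 and 0.832) was 0.642 and 0.640 after trimming 1% of regions per bin, 0.644 and 0.642 without regions over 100 reads, 1.06 (turning its direction) and 0.963 with the boundary at 5 Mb, 0.799 and 0.764 without the first 500 kb, 0.792 and 0.782 without the peaked chromosome 17 region, and 0.801 to 0.891 and 0.788 to 0.863 without each chromosome. The mean level at 3 to 4 Mb over that at 9 to 10 Mb (1.76 and 1.72) turned to 0.863 and 0.816 without regions over 100 reads, and was 1.26 and 1.20 as a median over chromosomes. The ratio of the medians of these intervals (0.850 and 0.714) was 0.962 over chromosomes and 0.643 without regions over 100 reads in the Emerald-negative library. The settings without those 4 chromosomes, the first 500 kb, the first 5% of rows or the chromosome 17 region were chosen after seeing the data. At a median of 8 and 10 reads per member, few differences exceed counting error. Past 2-fold were 86 (6.11%) and 71 (5.04%) members, against 5.39% and 5.46% of all regions. The counting interval left the common ratio in 38 (2.64%) and 21 (1.46%), against 1.86% and 1.55% of all regions. Some unchanged regions fall outside a 95% interval through counting error alone. The 2.64% was somewhat higher than the 1.86% of all regions, and the other shares were near those of the whole table.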
